A study of Mus musculus with 6 samples.

Results

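The cadherin superfamily and its catenin partners were followed in E14.5 mouse lacrimal gland buds with and without the Pea3 family of ETS transcription factors. The members were every gene symbol of the deposited tables that names a classical or atypical cadherin (Cdh), a protocadherin (Pcdh), a Celsr or Fat cadherin, or an alpha-, beta- or p120-family catenin, which gave 106 of 23420 gene symbols. The rule used names only and no measured value. Both groups came from E14.5 embryos of mixed background. The 3 Control samples are titled WT in the labels and described as Le-Cre for the sequencing in the paper. Its methods name both Le-Cre and Le-Cre;Pea3+/-;Ermflox/+;Er81flox/+ mice as controls across the experiments. The 3 Pea3 TKO samples carried Le-cre with Pea3-/-, Ermfl/fl and Er81fl/fl. Le-Cre is active in the surface ectoderm over the eye and in the gland epithelium that buds from it, so Erm (Etv5) and Er81 (Etv1) were deleted there, whereas Pea3 (Etv4) was missing from the whole embryo. Gland buds were cut out by laser capture and the RNA was sequenced in bulk. The labels do not say whether each sample came from a separate embryo, so the p-values measure the spread between these samples.

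Cadherins are calcium-dependent adhesion molecules that join like cells to each other through repeated extracellular domains. The classical cadherins bind p120-catenin and beta-catenin inside the cell, and alpha-catenin ties that complex to actin, whereas protocadherins lack this catenin tail and the giant Fat and Celsr cadherins align cells within the plane of a tissue. In budding glands E-cadherin and P-cadherin hold the epithelium together, and mesenchyme carries other classical cadherins such as Cdh11. Pea3-family factors bind DNA at sites built on the letters GGAA.

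Between 14194775 and 17860140 reads were counted in genes per sample. The targeted genes followed the labels, with 151 ± 29.1 TMM-normalized CPM (reads scaled to a common library size) of Etv4 in Control and 19.5 ± 8.79 in Pea3 TKO (SD, n = 3), a log2 fold change of -2.95, while Etv5 differed by -2.93 and Etv1 by -1.74 on the same scale. Of 6 epithelial markers, of which the member Cdh1 is 1, 5 were increased in Pea3 TKO, Cdh1 among them, and Epcam, an epithelial adhesion molecule, had 1408 ± 88.2 CPM in Control and 1256 ± 73.4 in Pea3 TKO (edgeR quasi-likelihood adjusted p = 0.31). Of 7 surface epidermis markers 6 were increased, with a summed level of 470 to 1371 CPM in Control and 4724 to 6950 in Pea3 TKO. The 10 mesenchyme markers summed to 21.4 to 135 CPM in Control, to 416 and 585 CPM in Pea3 TKO replicates 1 and 2 and to 15.2 CPM in replicate 3, and 2 of the 10 (Lum and Dcn) passed the test, calls that were lost on leaving out any of 4 and 3 libraries (adjusted p up to 0.14 and 0.060). Endothelial, skeletal muscle, nerve, immune and melanocyte markers summed to at most 7.76, 2.62, 5.92, 22.2 and 6.15 CPM in any sample, with Emcn, Tie1, Pax7 and Myf5 at 0 throughout. Only 1 of 7, 0 of 5, 3 of 6, 4 of 6 and 2 of 4 of these markers had enough reads to be tested, and none of those passed. Summed Y-linked transcripts ran from 136 to 175 CPM in Control and were 139 CPM in Pea3 TKO replicate 3, but were 0.44 and 0.21 CPM in Pea3 TKO replicates 1 and 2. Xist, made from the inactive X chromosome of females, was 106 and 32.5 CPM in Pea3 TKO replicates 1 and 2 and at most 0.44 CPM elsewhere. Sex, as read from these transcripts, was thus uneven between the groups and cannot be fully told apart from genotype. Each call below is therefore also given for the 4 libraries with Y-linked reads (3 Control samples and Pea3 TKO replicate 3) where that changed it.

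Of the 106 members, 15 had no read in any sample and 66 had enough reads to be tested. Cdh1, Cdh9, Cdh11, Pcdh8, Pcdhac2 and Ctnnd1 were increased in Pea3 TKO, and Pcdh18 and Celsr2 were decreased. These 8 were 12.1% of the tested members, whereas 25% of all 13087 tested genes passed the same threshold (13.6% increased and 11.3% decreased). Among them, Cdh9 and Pcdhac2 had at most 5 and 4 reads in a Control sample and entered the test only through their Pea3 TKO reads. For these genes a decrease could not have been called. The groups did not overlap for 17 tested members, 13 with Pea3 TKO above and 4 with it below, and this share can be read against 43.9% of all tested genes (22.5% above and 21.3% below). The median log2 fold change was 0.11 over the tested members and 0.01 over all tested genes, and the median size of the change without its sign was 0.54 and 0.38. The tested members included 17 beta and 20 gamma clustered genes, most of them at low levels and none called. These genes lower the share of members called. Scatter at low counts enlarges an unsigned change. Neither the share called nor the medians were matched for level. All member reads together made up 0.33% to 0.36% of the counted reads in Control and 0.42% to 0.45% in Pea3 TKO. Ctnnb1 and Cdh1 weigh most in this total, with means of 1476 and 499 CPM in Control and 1681 and 1066 CPM in Pea3 TKO. Most of the family was thus either silent or measured without a call, and the calls fell on a few members of different branches.

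**Figure D1:**
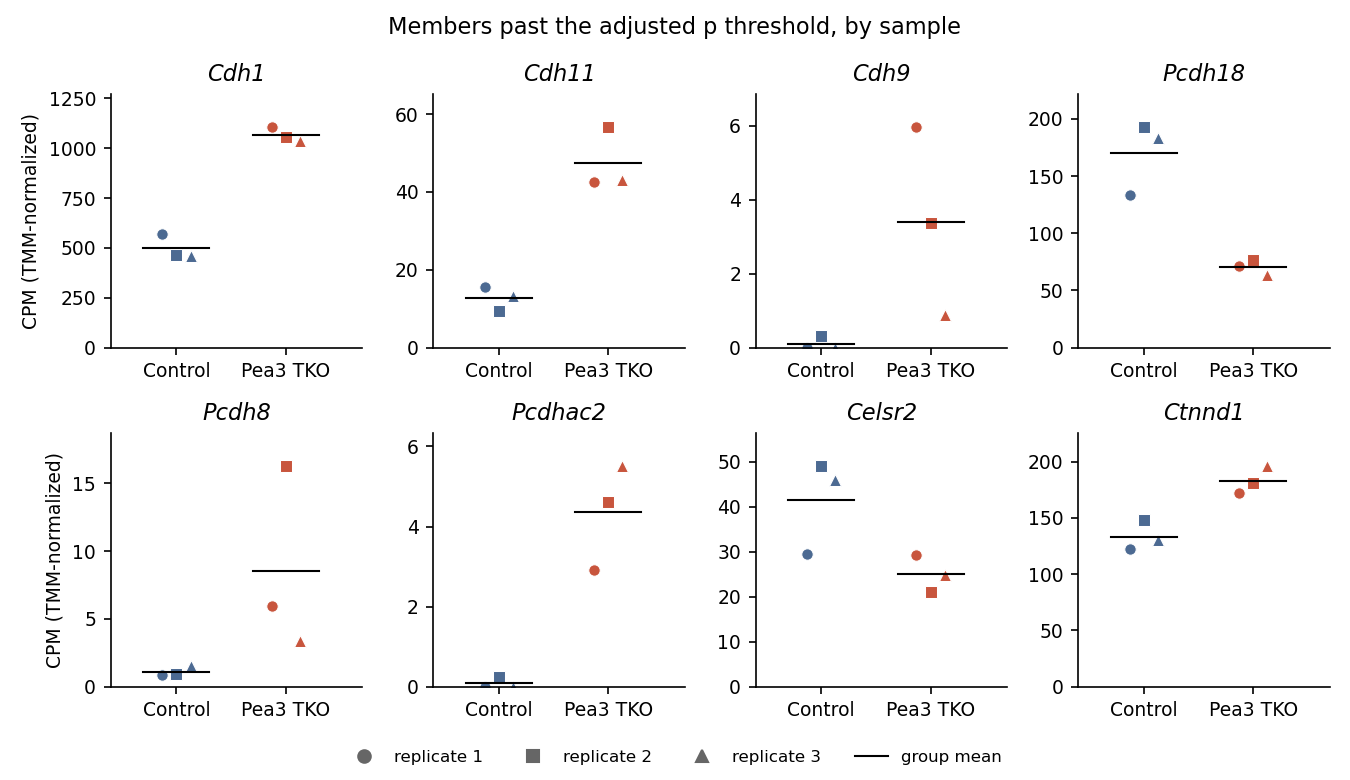
Normalized level in CPM (TMM-scaled, linear axes from 0) of the 8 members that passed the test, with 1 marker per sample and a bar at the group mean. Cdh1, Cdh11, Cdh9, Pcdh8, Pcdhac2 and Ctnnd1 lay higher in all 3 Pea3 TKO samples, Pcdh18 lay lower, and for Celsr2 the gap between the groups was narrow (29.4 CPM in the lowest Control sample and 29.2 in the highest Pea3 TKO sample).

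Levels can be compared between genes only per length, so the following are CPM per kb of annotated exon in Control. Beta-catenin, Ctnnb1, was the highest member at 408 ± 27.4, followed by Cdh1 at 113 ± 14.3, Ctnna1 at 90.9 ± 9.96, Cdh3 at 54.9 ± 3.89, Pcdh18 at 32.8 ± 6.16, Ctnnd1 at 20.7 ± 2.04, Ctnnd2 at 16.5 ± 1.13 and Pcdhgc3 at 13.8 ± 3.12 (SD, n = 3). Celsr1 (7.94 ± 3.77), Fat1 (5.75 ± 0.83) and Pcdh7 (5.39 ± 0.81) came next. Within 1 SD the neighbours Cdh1 and Ctnna1, Ctnnd2 and Pcdhgc3, Pcdhgc3 and Celsr1, and Celsr1, Fat1 and Pcdh7 could not be separated. Of the exonic bases of Ctnnd1 1951 of 6433 lie outside other gene models of the annotation, and of those of Pcdhgc3 1055 of 4687, so if reads in shared bases were not counted both genes would stand higher in this order. The control bud therefore carried a set of junction genes (Cdh1, Cdh3 and their catenins) together with 1 abundant non-clustered protocadherin, Pcdh18. In Pea3 TKO Cdh1 stood at 241 ± 8.64 CPM per kb and Ctnna1 at 97.9 ± 9.10, so that these neighbours no longer lay within 1 SD of each other.

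All 5 type I classical cadherins were tested, and 1 was increased. Cdh1 encodes E-cadherin, the adhesion molecule of epithelia. It read 572, 466 and 458 CPM in the Control samples and 1108, 1054 and 1034 CPM in the Pea3 TKO samples. The Pea3 TKO samples were close to each other and every one was well above every Control sample. The log2 fold change was 1.09 ± 0.12 (SE, edgeR quasi-likelihood adjusted p = 0.00041), or 2.14-fold. Leaving out any 1 library kept it between 1.04 and 1.20. In bulk tissue, more cells of a type and more RNA per cell cannot be told apart.

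Cdh3 encodes P-cadherin, found in budding and basal epithelia. The gene lies on chromosome 8 (GRCm38, 106510891 to 106557297, plus strand) with Cdh1 downstream on the same strand (106603351 to 106670246), separated by 46053 bp. Its levels were 228, 260 and 234 CPM in Control and 172, 199 and 214 CPM in Pea3 TKO. Every Pea3 TKO sample was thus below every Control sample, by a small margin, and the log2 fold change of -0.30 ± 0.12 did not pass the test (adjusted p = 0.095). The ratio of Cdh3 to Cdh1 within a sample, taken per kb, does not depend on library scaling. It was 0.40, 0.56 and 0.52 in the Control samples and 0.16, 0.19 and 0.21 in the Pea3 TKO samples, a difference of -1.41 on the log2 scale. The groups did not overlap, and the two-sided exact permutation test gave p = 0.10, the smallest p that 3 against 3 allows. Of all the classical cadherin reads per kb, Cdh1 made up 64.1% ± 3.83 in Control and 79.8% ± 1.49 in Pea3 TKO, and Cdh3 31.5% ± 3.49 and 14.8% ± 1.85.

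**Figure D2:**
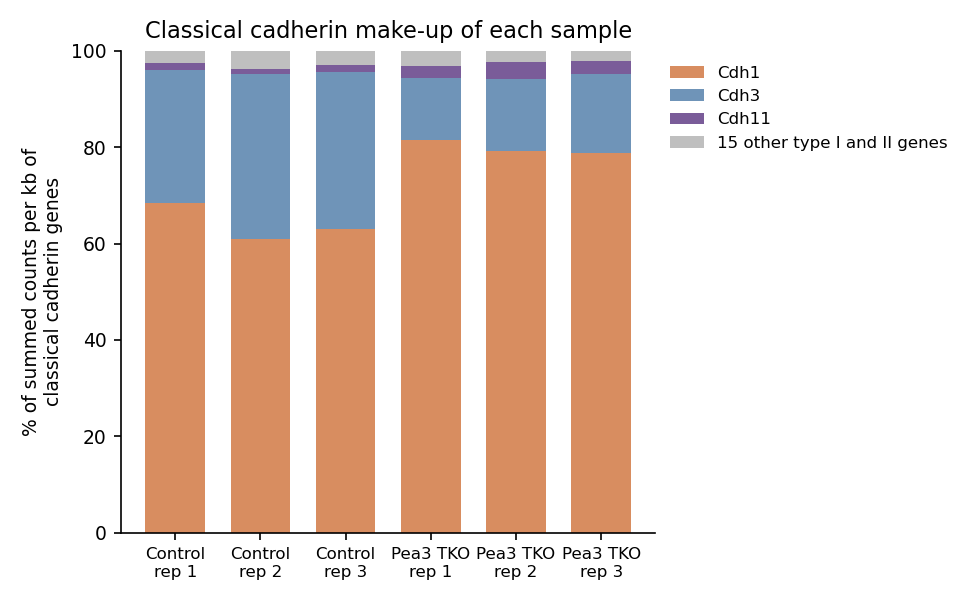
Share of each classical cadherin in the summed counts per kb of the 18 type I and type II genes, as stacked bars for each of the 6 samples (percent of the sum, from 0 to 100). Cdh1 took 60.9% to 68.3% in Control and 78.7% to 81.5% in Pea3 TKO, Cdh3 took 27.6% to 34.3% in Control and 12.8% to 16.5% in Pea3 TKO, and Cdh11 took at most 1.46% in Control and at least 2.45% in Pea3 TKO.

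Cdh4, the R-cadherin, read 14.1, 15.5 and 15.1 CPM in Control and 31.6, 22.2 and 12.7 CPM in Pea3 TKO. Replicates 1 and 2 of Pea3 TKO were above the Control samples and replicate 3 was below them. The call was not made (log2 fold change 0.57 ± 0.31, adjusted p = 0.20). Without Pea3 TKO replicate 3 the edgeR adjusted p was 0.036, and without Pea3 TKO replicate 1 it was 0.64. Cdh2, the N-cadherin of nerve and mesenchyme, read 0.52 to 1.87 CPM in Control and 0.70 to 1.88 CPM in Pea3 TKO. The groups overlapped fully at a log2 fold change of -0.04, with a 95% interval from -1.75 to 1.68, so a change of several fold in either direction could not be detected at this level.

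Among 13 type II classical cadherins, 7 were tested and Cdh11 and Cdh9 were increased. Cdh11, or OB-cadherin, is best known from mesenchyme and bone-forming cells. It was measured at 15.6, 9.47 and 13.3 CPM in Control and 42.5, 56.8 and 43.0 CPM in Pea3 TKO. All Pea3 TKO samples were far above the highest Control sample, and the log2 fold change was 1.89 ± 0.23 (adjusted p = 0.00058), from 1.71 to 2.06 with any 1 library left out. Cdh11 and the summed mesenchyme markers were both highest in Pea3 TKO replicate 2. In replicate 3, where the markers summed to 15.2 CPM, below every Control sample, Cdh11 was 43.0 CPM. With only the 4 libraries that held Y-linked reads, in which replicate 3 is the lone Pea3 TKO sample, the log2 fold change was 1.76 ± 0.31 (adjusted p = 0.033). The part of mesenchyme cells in the result was not tested.

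Cdh9, a type II cadherin studied mainly in nerve cells, had 0, 5 and 0 reads in the Control samples and 94, 48 and 15 reads in Pea3 TKO. It was near silent in Control and unevenly raised in Pea3 TKO, with 5.97, 3.36 and 0.88 CPM in replicates 1, 2 and 3. The log2 fold change was 4.95 ± 1.27 (adjusted p = 0.020), and its size rests on 5 control reads, all in replicate 2 (8.77 without that library). Without Control replicate 3, Pea3 TKO replicate 1 or Pea3 TKO replicate 2 the adjusted p was 0.065, 0.087 and 0.058. With the 4 libraries that held Y-linked reads it was 0.48. The order of Cdh9 over the Pea3 TKO samples and that of the mesenchyme markers were both lowest in replicate 3, and the part of those cells in the result was not tested.

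**Figure D3:**
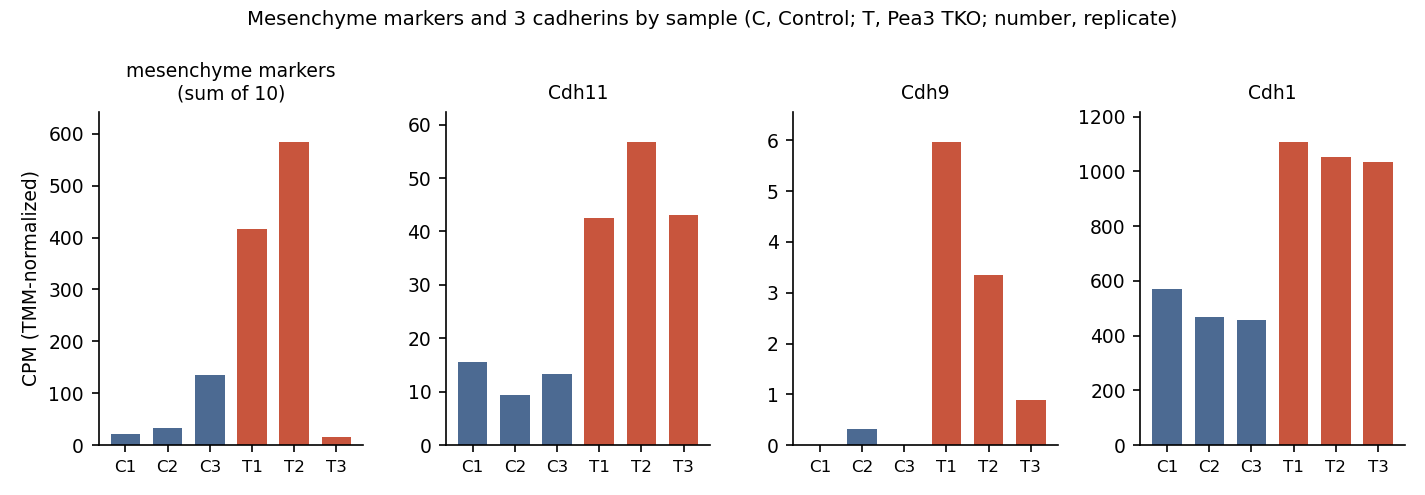
Summed CPM of the 10 mesenchyme markers beside Cdh11, Cdh9 and Cdh1 in each sample (C, Control; T, Pea3 TKO; the number is the replicate; linear axes from 0). Mesenchyme markers reached 416 and 585 CPM in T1 and T2 and 15.2 CPM in T3, while Cdh11 (42.5 to 56.8 CPM) and Cdh1 (1034 to 1108 CPM) were raised in T1, T2 and T3 alike.

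Cdh8 and Cdh12 are type II cadherins known from neurons. Cdh8 read 0.28, 0.56 and 0.59 CPM in Control and 5.52, 2.2 and 0.70 CPM in Pea3 TKO, and Cdh12 read 0.79, 0.06 and 0.39 CPM in Control and 1.21, 1.54 and 5.58 CPM in Pea3 TKO. In both the groups did not overlap, but the highest Pea3 TKO sample differed (replicate 1 for Cdh8 and replicate 3 for Cdh12) and neither call was made (log2 fold changes 2.54 ± 0.87 and 2.71 ± 0.97, adjusted p = 0.059 and 0.068). Cdh8 passed without Pea3 TKO replicate 3 (adjusted p = 0.034), and Cdh12 passed without Control replicate 1 (0.048). Other removals went the other way, to 0.30 for Cdh8 without Pea3 TKO replicate 1 and 0.31 for Cdh12 without Pea3 TKO replicate 3. Cdh24 was the type II gene next to Cdh11 in control level per kb, at 6.37 ± 2.91 CPM in Control and 5.88 ± 1.54 in Pea3 TKO (adjusted p = 0.88).

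Cdh5, the cadherin of endothelium, had 1 read in all 6 libraries. The 5 atypical cadherins were below the filter. Cdh13, a cadherin held by a lipid anchor in place of a membrane span, had 0, 1 and 0 reads in Control and 20, 20 and 5 in Pea3 TKO. The kidney and gut cadherins Cdh16 and Cdh17 had none, and the inner ear cadherin Cdh23 had 11, 7 and 4 reads in Control and 4, 0 and 0 in Pea3 TKO.

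Non-clustered protocadherins are adhesion molecules of the nervous system and of moving embryonic tissues. The 4 delta-1 genes gave 3 tested members and no call. Pcdh7, the delta-1 gene with the highest control level per kb, read 47.0, 54.7 and 63.4 CPM in Control and 46.9, 37.5 and 33.2 CPM in Pea3 TKO. The groups met at 46.9 and 47.0 CPM without overlap, and the log2 fold change of -0.49 ± 0.18 did not pass (adjusted p = 0.074, and 0.045 or 0.046 without Control replicate 1 or Pea3 TKO replicate 1). Pcdh1, a protocadherin of epithelia such as the airway, leaned the other way at 32.3 ± 8.09 CPM in Control and 48.0 ± 9.32 in Pea3 TKO (log2 fold change 0.57 ± 0.22, adjusted p = 0.083, and 0.028 without Control replicate 1). Without Control replicate 3 the edgeR adjusted p rose to 0.24 for Pcdh7 and 0.25 for Pcdh1.

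Pcdh18, a delta-2 protocadherin, had the larger of the 2 called decreases. Control samples had 134, 193 and 183 CPM, and Pea3 TKO samples had 71.3, 76.6 and 63.3 CPM. The groups were well apart and the Pea3 TKO samples were tightly grouped. The log2 fold change was -1.27 ± 0.16 (adjusted p = 0.00065), that is 2.41-fold lower, and ran from -1.42 to -1.17 with any 1 library left out. The decrease also passed in the 4 libraries with Y-linked reads.

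Pcdh8, the paraxial protocadherin of the early embryo, went in the opposite direction from a much lower level. Control samples had 0.85, 0.93 and 1.496 CPM and Pea3 TKO samples had 5.97, 16.3 and 3.35 CPM. All Pea3 TKO samples were higher, and replicate 2 was far above the other two. The log2 fold change was 2.96 ± 0.65 (adjusted p = 0.0098), and without Pea3 TKO replicate 2 it was 2.09 (adjusted p = 0.066). In the 4 libraries with Y-linked reads the adjusted p was 0.37. An antisense gene model overlaps part of Pcdh8, leaving 3564 of its 4000 exonic bases free, and the strand setting of the counts is not given in the sources used here.

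The 250 bases before the RefSeq start site (GRCm38.p6) are shown for the members that decreased, Pcdh18 and Celsr2, and for Pcdh8, which increased, because the deleted factors bind sites built on GGAA. Capitals mark GGAA on either strand, written as GGAA or TTCC. The windows are chr3:49757317-49757566, chr3:108415580-108415829 and chr14:79771313-79771562, all on the minus strand.
Pcdh18: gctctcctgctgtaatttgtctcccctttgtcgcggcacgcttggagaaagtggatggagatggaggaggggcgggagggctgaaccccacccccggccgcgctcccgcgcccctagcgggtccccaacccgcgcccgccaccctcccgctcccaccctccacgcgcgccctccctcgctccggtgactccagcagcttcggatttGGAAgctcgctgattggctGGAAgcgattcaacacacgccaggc
Celsr2: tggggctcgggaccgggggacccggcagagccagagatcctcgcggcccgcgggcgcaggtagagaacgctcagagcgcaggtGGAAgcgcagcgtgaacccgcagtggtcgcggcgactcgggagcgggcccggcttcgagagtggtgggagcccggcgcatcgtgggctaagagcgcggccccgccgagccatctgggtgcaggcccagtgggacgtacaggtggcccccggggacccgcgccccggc
Pcdh8: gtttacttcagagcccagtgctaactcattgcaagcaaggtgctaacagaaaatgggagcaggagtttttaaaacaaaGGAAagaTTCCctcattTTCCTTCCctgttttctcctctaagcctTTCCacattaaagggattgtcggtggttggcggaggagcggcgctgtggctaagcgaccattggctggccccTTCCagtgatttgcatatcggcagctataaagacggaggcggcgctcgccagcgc
Pcdh18 held 2 matches, Celsr2 1 and Pcdh8 6. Of all 32851 windows of that length, 93.4% held GGAA, so the presence of the letters does not set these genes apart. The median over all windows was 3 matches and the 95th percentile was 6. Pcdh8 was thus at the 95th percentile, and Pcdh18 and Celsr2 were below the median. The longer CGGAAG was in none of the 3 windows and in 13.6% of all windows, and CACCTG, the E-box bound by Snail and Zeb repressors of cadherin genes, was matched at 2 places in Celsr2 and in 17.2% of all windows. Over the 33 members with an entry, 35 of 40 windows held GGAA and 2 of 40 held CGGAAG. Among the increased members with an entry, Cdh9 held 6 matches to GGAA and the windows of Ctnnd1 held 4 and 7, beside the 95th percentile of 6. A window of Cdh7, which had too few reads to be tested, also held 7. The increased members Cdh1, Cdh11 and Pcdhac2 had no entry. A match is a description of the letters and not a bound site.

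Pcdh19, whose human counterpart is an epilepsy gene on the X chromosome, was the remaining delta-2 gene tested, at 1.77 ± 0.88 CPM in Control and 4.09 ± 2.41 in Pea3 TKO (adjusted p = 0.20). Pcdh20 was below the filter with 0, 1 and 0 reads in Control and 9, 8 and 104 in Pea3 TKO, so its reads came almost all from Pea3 TKO replicate 3. Pcdh12, a protocadherin of endothelium, had 17 reads, all in Control replicate 3.

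The clustered protocadherins of chromosome 18 give single neurons their surface identity, and each alpha and gamma gene joins its own first exon to constant exons shared by the cluster. The deposited counts were per gene symbol, and how reads in the shared exons were assigned is not given in the sources used here, so the split between members of a cluster is uncertain. The alpha cluster was close to silent. Its 14 genes summed to 0.51, 0.81 and 0 CPM in Control and to 2.92, 6.29 and 6.11 CPM in Pea3 TKO, and 8 of the 14 had no read at all. Pcdha9, the alpha gene with the highest control level per kb, had 9 reads in Control replicate 2 and none in the other samples.

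Pcdhac2, the last variable exon of the alpha cluster, was its only tested gene and made up most of its reads in Pea3 TKO. It had 0, 4 and 0 reads in Control and 46, 66 and 94 reads in Pea3 TKO (2.92, 4.61 and 5.52 CPM). The log2 fold change was 5.60 ± 1.08 (adjusted p = 0.0057), and it passed with any 1 library left out (adjusted p up to 0.024). Its size depends on 4 control reads in replicate 2, without which the fitted value was 9.13, so the reads themselves are the better measure. In the 4 libraries with Y-linked reads the fitted value was 5.95 with an adjusted p of 0.089. The summed alpha cluster in Pea3 TKO was 11.6 times that in Control, 20.1 times without Control replicate 2 and 7.75 times without Control replicate 3.

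The beta and gamma clusters were present at low levels and showed no call among 17 and 20 tested genes. The beta genes summed to 33.8, 45.3 and 37.1 CPM in Control and 34.0, 37.2 and 33.0 CPM in Pea3 TKO. The gamma genes summed to 103, 155 and 132 CPM in Control and 105, 132 and 100 CPM in Pea3 TKO. In both clusters the groups overlapped, with ratios of Pea3 TKO over Control of 0.90 and 0.87. Between 15 and 19 of 22 beta genes and 21 or 22 of 22 gamma genes had at least 1 read in each sample. Pcdhb7, the highest beta gene per kb, read 5.75, 3.93 and 5.07 CPM in Control and 4.001, 1.54 and 5.76 CPM in Pea3 TKO. The groups overlapped (adjusted p = 0.64), and Pcdhb17 was next to it at 6.46 ± 2.80 and 4.56 ± 1.99 CPM.

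Pcdhgc3, a gamma gene of the C type, had the highest level of the gamma genes. It read 48.5, 69.1 and 76.7 CPM in Control and 34.5, 53.7 and 42.4 CPM in Pea3 TKO. The groups overlapped through Control replicate 1, and the log2 fold change of -0.57 ± 0.21 did not pass (adjusted p = 0.077). It passed without that library (0.021), whereas without Control replicate 3 the adjusted p was 0.24. Without Pcdhgc3 the other 21 gamma genes summed to 65.3 ± 17.7 CPM in Control and 69.2 ± 10.4 in Pea3 TKO. Pcdhgb6 had all Pea3 TKO samples above Control, at 9.78 ± 1.26 against 5.92 ± 1.19 CPM, and missed the threshold (adjusted p = 0.12). Pcdhga7, at 9.32 ± 3.08 and 11.6 ± 3.80 CPM, overlapped (adjusted p = 0.56).

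**Figure D4:**
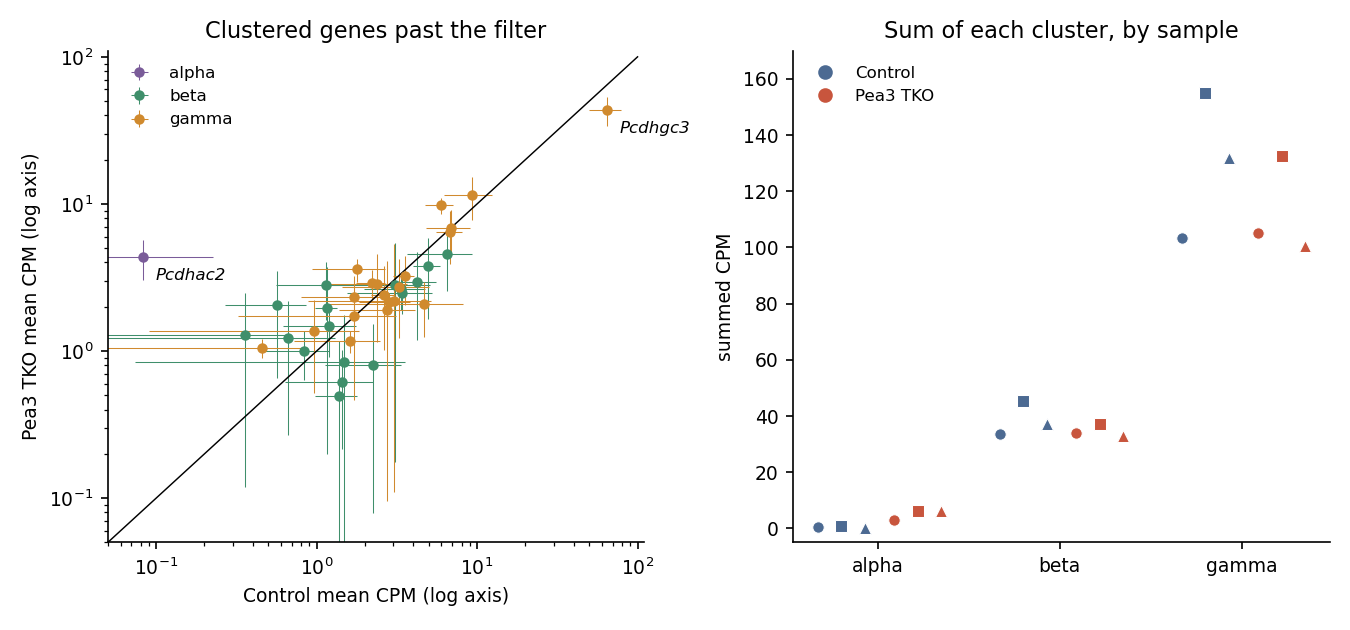
Left, mean CPM in Pea3 TKO against Control (log axes) for the clustered genes that were tested, with bars of 1 SD over 3 samples and a line of equality. Right, summed CPM of each cluster by sample (circle, square and triangle for replicates 1, 2 and 3), where the alpha cluster reached at most 0.81 CPM in Control and at least 2.92 CPM in Pea3 TKO and the beta and gamma sums overlapped between the groups.

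The 4 Fat cadherins, giant relatives of a fly growth suppressor, were all tested and none passed. Fat1, the most abundant, read 72.4, 96.5 and 89.7 CPM in Control and 135, 80.6 and 65.3 CPM in Pea3 TKO. The Control range lay inside the Pea3 TKO range (log2 fold change 0.12 ± 0.24, adjusted p = 0.76), and without Pea3 TKO replicate 1 the sign turned (-0.24). Fat4, the receptor that pairs with Dachsous cadherins, read 9.13, 10.5 and 3.58 CPM in Control and 37.8, 12.3 and 8.69 CPM in Pea3 TKO. Replicate 1 of Pea3 TKO carried most of that difference, and the log2 fold change of 1.34 ± 0.56 (adjusted p = 0.11) became 0.44 without it. Fat2 was higher in all Pea3 TKO samples without passing, at 10.3 ± 0.82 CPM in Control and 16.7 ± 7.74 in Pea3 TKO (adjusted p = 0.15, log2 fold change 0.69, or 0.24 without Pea3 TKO replicate 1).

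The Celsr cadherins carry planar polarity signals from cell to cell. Celsr2 read 29.4, 49.1 and 46.0 CPM in Control and 29.2, 21.0 and 24.8 CPM in Pea3 TKO. The groups did not overlap, yet Control replicate 1 and Pea3 TKO replicate 1 were nearly equal. The decrease was -0.73 ± 0.23 on the log2 scale (adjusted p = 0.041), and it lost its call without Control replicate 2 (0.15), Control replicate 3 (0.13) or Pea3 TKO replicates 1 (0.052), 2 (0.13) or 3 (0.087). It was also lost with upper-quartile scaling (0.053) and in the 4 libraries with Y-linked reads (0.28). Celsr1 read 39.7, 103 and 117 CPM in Control and 150, 132 and 99.5 CPM in Pea3 TKO, with a low Control replicate 1, overlapping groups and no call (log2 fold change 0.56 ± 0.33, adjusted p = 0.25). Celsr3 had 1 read in Control and 27, 6 and 0 in Pea3 TKO.

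Catenins link cadherins to the cell interior. Ctnnd1, the p120-catenin that keeps classical cadherins at the surface, read 122, 148 and 130 CPM in Control and 172, 181 and 196 CPM in Pea3 TKO. The groups were separate, with a modest log2 fold change of 0.46 ± 0.12 (adjusted p = 0.021). The call was lost by a little without Control replicates 1 (0.055) or 3 (0.080), without Pea3 TKO replicates 2 (0.064) or 3 (0.061) and in the 4 libraries with Y-linked reads (0.11), while the value stayed between 0.40 and 0.57 in all the alternatives run. Most of its exonic bases lie within other gene models too, so reads of overlapping genes may be among these.

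Ctnnb1, the beta-catenin of junctions and Wnt signals, read 1365, 1555 and 1510 CPM in Control and 1559, 1762 and 1723 CPM in Pea3 TKO. The lowest Pea3 TKO sample and the highest Control sample were nearly equal, and the log2 fold change was 0.19 ± 0.11 (adjusted p = 0.26, 95% interval -0.06 to 0.44). Ctnna1, the epithelial alpha-catenin, read 379, 305 and 334 CPM in Control and 345, 405 and 347 CPM in Pea3 TKO. The groups overlapped, and its log2 fold change of 0.11 had a 95% interval from -0.17 to 0.39. Ctnnd2, or delta-catenin, known from neurons, was at 98.0 ± 6.72 and 102 ± 8.15 CPM with an interval from -0.21 to 0.34. The intervals of these 3 catenins lie below the log2 fold change of Cdh1, whose own interval runs from 0.82 to 1.37, though the difference between the genes was not tested. Ctnna2 had 0 reads in Control and 7, 0 and 24 in Pea3 TKO, and Ctnna3 had none.

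**Figure D5:**
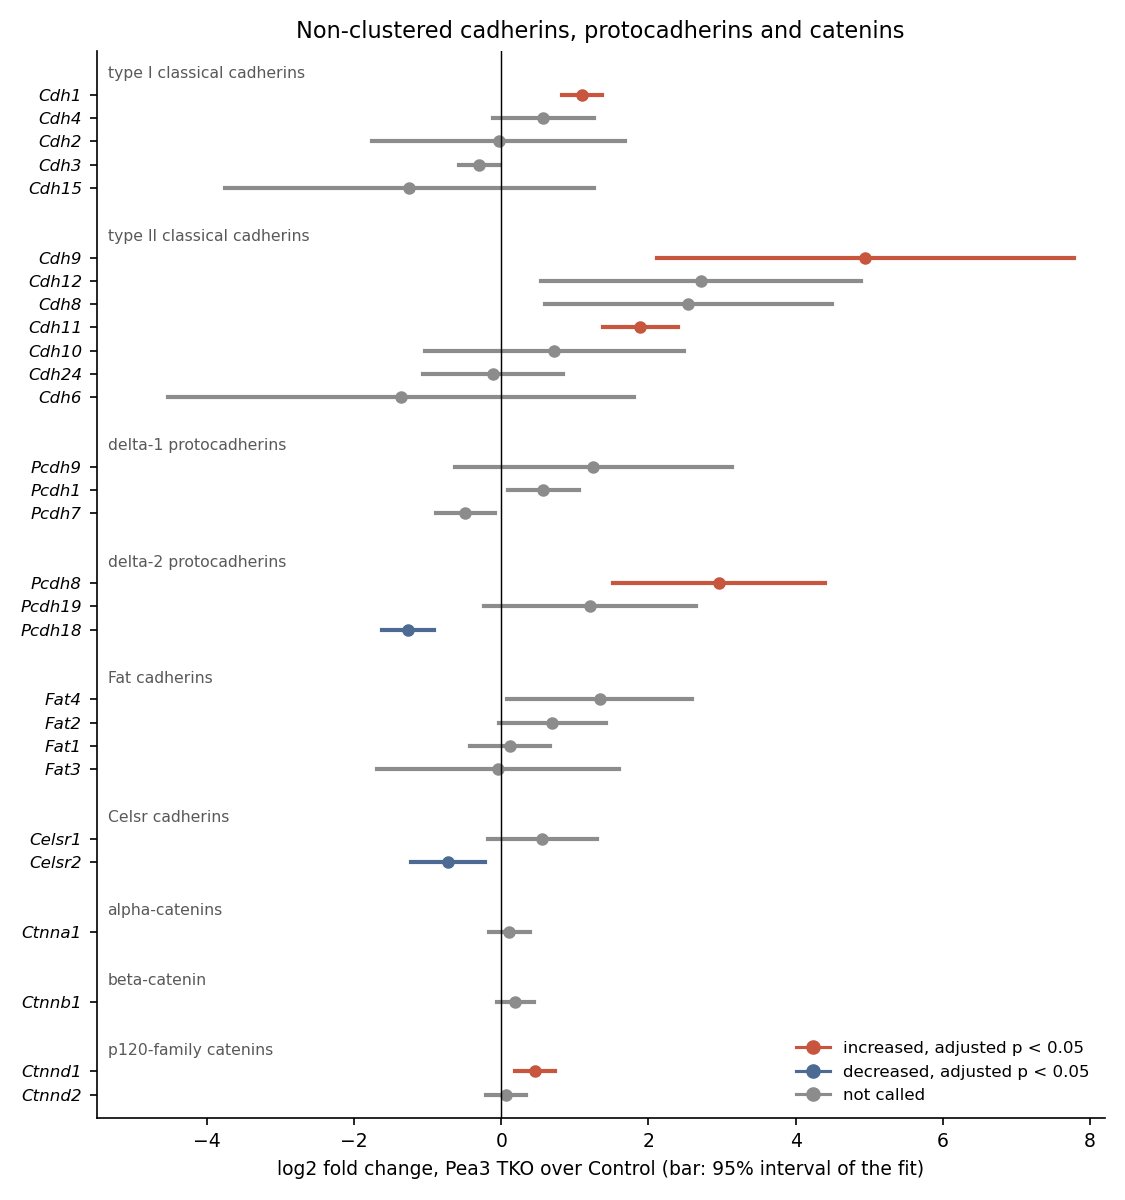
Log2 fold change of Pea3 TKO over Control for the tested members outside the clusters, by branch, with bars for the 95% interval of the fit (red, increased; blue, decreased; grey, no call). Intervals were narrow for the abundant catenins, Cdh1, Cdh3 and Pcdh18, and spanned several log2 units for members with few reads such as Cdh2, Cdh6 and Cdh15.

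Genes that work with cadherins were counted from lists. The counts of every list below can be read against 13.6% increased and 11.3% decreased among all 13087 tested genes. The lists are short, and none was tested as a set. Of 10 other catenin-family and actin linkers tested, 2 were increased and 2 decreased. Jup, or plakoglobin, the beta-catenin relative shared by adherens junctions and desmosomes, rose from 324 ± 70.2 to 678 ± 36.0 CPM (log2 fold change 1.07 ± 0.15, adjusted p = 0.0013), beside Pkp4, named here after its values were seen, at 0.68. Ctnnal1, an alpha-catenin relative, fell by 0.73 on the log2 scale (adjusted p = 0.0068), and so did Ctnnbip1, an inhibitor of beta-catenin in Wnt signalling, by 0.60. Pkp4 lost its call without Pea3 TKO replicate 1 (0.055) and Ctnnbip1 without Control replicate 2 (0.052). In the 4 libraries with Y-linked reads Jup (adjusted p = 0.0505), Pkp4 (0.10) and Ctnnbip1 (0.20) did not pass.

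Nectins are the immunoglobulin-type adhesion molecules of the same junctions. Of 4 tested, Pvrl3 (0.90 ± 0.17, adjusted p = 0.0046), Pvrl1 (1.04 ± 0.24, adjusted p = 0.013) and Pvrl4 (1.72 ± 0.45, adjusted p = 0.021) were increased on the log2 scale. Pvrl3 passed with any 1 library left out, Pvrl1 did not without Control replicate 3 (0.0501), and Pvrl4 did not without Control replicate 2 or Pea3 TKO replicate 1 (adjusted p up to 0.082). In the 4 libraries with Y-linked reads neither Pvrl1 (0.080) nor Pvrl4 (0.22) passed. Of 4 tested partners of Fat and Dachsous none passed, the smallest p belonging to Fjx1, a kinase relative that modifies Fat cadherins (-0.30 ± 0.11, adjusted p = 0.065).

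Of 12 planar polarity genes that act with Celsr proteins, 4 were increased and none decreased, beside 13.6% and 11.3% of all tested genes. Prickle1 rose from 20.7 ± 2.96 to 69.6 ± 6.63 CPM (log2 fold change 1.75 ± 0.16, adjusted p = 0.00016) and Prickle3 from 5.02 ± 0.44 to 15.3 ± 4.90 CPM (1.60 ± 0.31, adjusted p = 0.0060), and both passed with any 1 library left out, though in the 4 libraries with Y-linked reads Prickle3 did not (adjusted p = 0.14). Vangl1, a membrane partner of Prickle, rose by 0.54 ± 0.16, and Fzd6, a Frizzled receptor named here after its values were seen, by 0.40 ± 0.12. The call of Vangl1 was lost on leaving out any of 4 libraries (adjusted p up to 0.12), and that of Fzd6 on leaving out any of the 6 (up to 0.13). In the 4 libraries with Y-linked reads neither passed (0.17 and 0.28).

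Of 7 tested repressors of cadherin genes, Zeb2 was increased from 0.76 ± 0.31 to 4.75 ± 1.32 CPM (log2 fold change 2.64 ± 0.60, adjusted p = 0.011), Tcf3 fell by 0.38 and Tcf4 fell by 0.43 on the log2 scale. Zeb2 passed with any 1 library left out, with a low level in both groups, while Tcf3 and Tcf4 lost their calls on leaving out any of 3 and 5 libraries (adjusted p up to 0.082 and 0.14). In the 4 libraries with Y-linked reads Zeb2 (adjusted p = 0.14), Tcf3 (0.11) and Tcf4 (0.22) did not pass. Of 4 genes of cadherin shedding and turnover, Adam10, the protease that cuts E-cadherin, fell by 0.59 ± 0.17 on the log2 scale, and this call was lost on leaving out any of 4 libraries (adjusted p up to 0.12) and in the 4 libraries with Y-linked reads (0.34).

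Of 3 other genes with cadherin repeats, Cdhr1, known from photoreceptors, rose from 23.9 ± 7.40 to 112 ± 16.4 CPM (log2 fold change 2.22 ± 0.23, adjusted p = 0.00024), and Clstn1, a calsyntenin, fell by 0.58 ± 0.12 (adjusted p = 0.0072). Both passed with any 1 library left out, and Clstn1 did not in the 4 libraries with Y-linked reads (adjusted p = 0.052). Of 8 regulators of the clustered protocadherins, Dnmt3b, the DNA methyltransferase that acts on their promoters, fell by 1.51 ± 0.16 on the log2 scale (adjusted p = 0.00035), from 62.0 ± 3.02 to 21.8 ± 3.45 CPM. Ctcf, the insulator protein of these clusters, fell by 0.46 ± 0.13 and Rad21, of cohesin, rose by 0.38 ± 0.11, and each lost its call on leaving out any of 5 libraries (adjusted p up to 0.11 and 0.087) and in the 4 libraries with Y-linked reads (0.38 and 0.11). Of the genes of these lists that lost their call in those 4 libraries, Jup and Clstn1 passed with the summed Y-linked level as a covariate over all samples, and the others did not. That level set apart only Pea3 TKO replicates 1 and 2. The genotype term of that fit therefore rested mostly on Pea3 TKO replicate 3 against Control, so it is not a separate check.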

How the data were processed

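RNA of laser-captured E14.5 lacrimal gland buds was sequenced for 3 Control and 3 Pea3 TKO samples, grouped by the genotype in the labels. The authors deposited raw read counts per gene symbol, 1 table per sample, without pooling. Per the submitters' processing notes, bcl2fastq 2.17, STAR 2.5.2b, featureCounts 1.5.0-p3, DESeq and build mm10 were used. The annotation, strand setting and treatment of shared reads are not given in the sources used here. The labels name both an Ovation amplification and a poly-A TruSeq preparation.

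From the counts, genes were kept by filterByExpr (minimum count 10, minimum total 15), scaled by TMM and tested with the quasi-likelihood test of edgeR 4.0.16 in R 4.3.3, with Benjamini-Hochberg adjustment over all 13087 genes kept and a threshold of 0.05. SE is the log2 fold change divided by the root of F, and intervals are those of the fit. CPM are TMM-scaled. The script was tested on simulated counts. All pairs of replicates within a group differed beyond counting noise (chi-square per degree of freedom at least 15.5). The floor of 3 reads was 0.17 to 0.21 CPM, for counting error only. Positions and exon lengths of 105 members came from GENCODE M21 (GRCm38), and promoters of 33 members from RefSeq.

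Values in every sample are given for Cdh1, for each called member and for the member with the highest control level per kb in each branch. Others that were tested could be named, and up to 3 genes with the smallest p in each list. Epcam, Pkp4 and Fzd6 lie outside that rule and were chosen after their values were seen. Members, lists and tests were chosen with earlier results of these data known. Alternatives were other scalings (RLE, upper quartile), no filter or a stricter filter (1 CPM in 3 samples), the replicate number as a block, summed Y-linked level as a covariate, leaving out each library, and DESeq2 1.42.0. 1 gene of a list is not reported here.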

Additional observations from a re-analysis of the deposited data

How the results depend on the processing

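Against 8 members called, 4 were called with the Y-linked level as a covariate (Cdh9, Pcdh8, Celsr2 and Ctnnd1 lost), 14 by DESeq2 (adding Cdh8, Cdh12, Cdh13, Fat4, Pcdh20 and Pcdhgc3) and 4 to 11 with 1 library left out, lowest without Pea3 TKO replicate 2 and then Control replicate 3 (5). Against 3268 genes called in all, 778 were called with that covariate and 1948 to 3344 with 1 library left out, and Control replicates 2 and 3 and Pea3 TKO replicate 2 each moved the count by over 1.5 times (1963, 1948 and 2072). With only the 4 libraries that held Y-linked reads, an alternative chosen after seeing the data in which the lone Pea3 TKO sample is assumed to vary like the Control samples, 4 members (Cdh1, Cdh11, Pcdh18 and Pcdh20) and 597 genes were called. Cdh1, Cdh11, Pcdh18 and Pcdhac2 passed in all 13 alternatives listed in the methods, Pcdh8 in 11 of 13, Cdh9 in 8 of 12 (it fell under the stricter filter), Ctnnd1 in 8 of 13 and Celsr2 in 5 of 13. The log2 fold change changed sign with the covariate for Cdh2 (0.64), Cdh4 (-0.24), Cdh24 (0.17), Pcdhb7 (0.29), Pcdhga7 (-0.013), Fat1 (-0.41) and the mesenchyme gene Lum (-0.82), and with the 4 libraries for Cdh2 (0.64), Cdh4 (-0.21), Cdh24 (0.19), Pcdhb7 (0.24), Fat1 (-0.39) and Lum (-0.71). With 1 library left out, Cdh2 ran from -0.55 to 0.41, Cdh24 from -0.31 to 0.32 and Fat1 from -0.24 to 0.32, turning sign without Control replicate 2 (Cdh2, Cdh24), Pea3 TKO replicate 1 (Cdh2, Fat1) or Pea3 TKO replicate 2 (Cdh2, Cdh24). The cause was not tested. Because the Y-linked level set apart only Pea3 TKO replicates 1 and 2, the covariate fit also rested mostly on Pea3 TKO replicate 3 against Control. The covariate and the 4 libraries are thus not separate checks. The ratio of Cdh3 to Cdh1 stayed between -1.55 and -1.29 on the log2 scale with 1 library left out. No scaling moved the median of all genes by over 0.04.

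Samples with the same replicate number correlated in their deviations at r = 0.13, -0.04 and -0.001, and only 1 of the 3 Control samples correlated best with its own number, so the number was not taken as a pairing. With the replicate number as a block, 10 members and 3191 genes were called, with Fat4 (adjusted p = 0.046), Pcdh1 (0.044) and Pcdhgc3 (0.033) added and Celsr2 (0.069) lost.

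Members under about 2 CPM had intervals that span several log2 units. Some varied widely within a group, as with 68, 10 and 0 reads of Pcdhb12 in Control. The part of depth in this was not tested.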
